A study of Mus musculus with 6 samples.

Results

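The genes described here encode 39 components of the phosphoinositide 3-kinase (PI3K), AKT and mTOR signalling pathway, out of 39179 genes counted in each library. They were chosen by name as signalling components and matched by symbol to Ensembl mouse gene identifiers, and each of the 39 matched 1 identifier and passed the filter on low counts. RNA was sequenced from mouse Th17 cells, the IL-17-producing class of CD4+ T helper cells, to ask how an insulin-like growth factor changes what these cells express. The 3 Th17_Tx libraries are of cells cultured with 30 ng/mL desIgf1, a truncated insulin-like growth factor 1 with weak affinity for IGF-binding proteins, and the 3 Th17_Ctrl libraries are of cells cultured without it.

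Both groups share everything else that the labels give. The mice were C57BL/6 with the IL17a/hCD2, Ifng/Thy1.1 and Foxp3/GFP reporter alleles, of an age the labels do not state. Naive CD4+ T cells from spleen were kept in culture for 5 days and stimulated there by soluble anti-CD3 (5 µg/mL) and irradiated splenocytes that had been depleted of CD4+ cells. The medium held IL6 at 20 ng/mL and TgfB at 2.5 ng/mL, and blocking antibodies to Ifng and IL4 at 10 µg/mL each. Cells positive for the IL-17a/hCD2 reporter and negative for the Foxp3/GFP and Ifn-γ/Thy1.1 reporters were sorted for RNA, so only cells that had switched on Il17a were measured. A protocol field names desIgf1 for all 6 libraries, and the groups were taken from titles and descriptions. Whether the 3 libraries of a group had a mouse or a culture each is not in the labels, so the p-values here cover the spread of these libraries, which may be technical.

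When a growth factor receptor such as the IGF1 receptor is engaged, class I PI3K makes the membrane lipid PIP3, which recruits the kinases PDK1 and AKT. AKT then inactivates the TSC complex and thereby lets the small GTPase RHEB switch on mTOR complex 1, while amino acids act through the RAG GTPases, which bring the complex to the lysosome. mTOR complex 1 drives protein synthesis through S6 kinases and the 4E-BP proteins, and mTOR complex 2 phosphorylates AKT and the SGK kinases. In CD4+ T cells the pathway sets growth and glycolysis, and mTOR complex 1 and SGK1 are known to favour Th17 cells. These relations are of proteins and their phosphorylation, which were not measured. The values below are levels of messenger RNA.

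All 39 messenger RNAs passed the filter on low counts, and none was called higher or lower with desIgf1. In edgeR's quasi-likelihood test 0 of the 39 genes passed an adjusted p of 0.05, with a smallest adjusted p of 0.505, against a background of 0% of all 13846 tested genes. With the replicate number as a block the count for the 39 genes was again 0, against 0.318% of all tested genes. By DESeq2 it was 0, against 1.48% of the 14097 genes to which DESeq2 gave an adjusted p. At an unadjusted p under 0.05 there were 3 of the 39 genes (7.69%), against 8.16% of all tested genes. Of these, 2 were higher with desIgf1, Pik3cg and Pik3r1, where 4.75% of all tested genes were, and 1 was lower, Eif4ebp2, where 3.42% were. With the block there were 4 (10.3%), against 14.3%, of which 2 were higher (9.02% of all tested genes) and 2 lower (5.29%), Pik3r5 being the one added. These shares are close to or under those of all tested genes. Log2 fold changes of desIgf1 over control ran from -0.57 to 0.36, with 20 above and 19 below 0. No gene reached 1 in size, which 3.71% of all tested genes did. Their median was 0.00073, beside -0.0052 over all tested genes. The median size of the change, with its sign dropped, was 0.070 on the log2 scale, beside 0.17 over all tested genes. The pathway genes are more abundant than most, since 33 of the 39 lay above the median level of tested genes. In sorted cells measured in bulk, fewer cells that express a gene and less RNA per cell cannot be told apart.

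The intervals show how large a difference could have gone unseen. The 95% interval of the log2 fold change lay within 1 either way, a 2-fold change, for 35 of the 39 genes (89.7%), against 70.9% of all tested genes. It lay within 0.5 either way for 28 of them (71.8%), against 37.6% of all tested genes. The 4 genes with wider intervals were Pik3r5 (-1.17 to 0.03), Deptor (-1.15 to 0.59), Sgk1 (-1.36 to 1.40) and Rragd (-1.27 to 0.69). With the block, 38 of the 39 intervals lay within 1 either way (97.4%), against 75.3% of all tested genes. The exception was Deptor (-1.09 to 0.48), while those of Pik3r5 (-0.94 to -0.20), Sgk1 (-0.31 to 0.62) and Rragd (-0.92 to 0.33) were narrower. Deptor and Rragd had low levels, at 1.08 to 2.16 CPM with desIgf1 and 1.32 to 2.19 CPM in controls for Deptor and 3.43 to 8.48 CPM with desIgf1 and 4.98 to 11.8 CPM in controls for Rragd, while Sgk1 was more abundant and varied between libraries. CPM are read counts scaled to library size with TMM factors throughout.

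**Figure D1:**
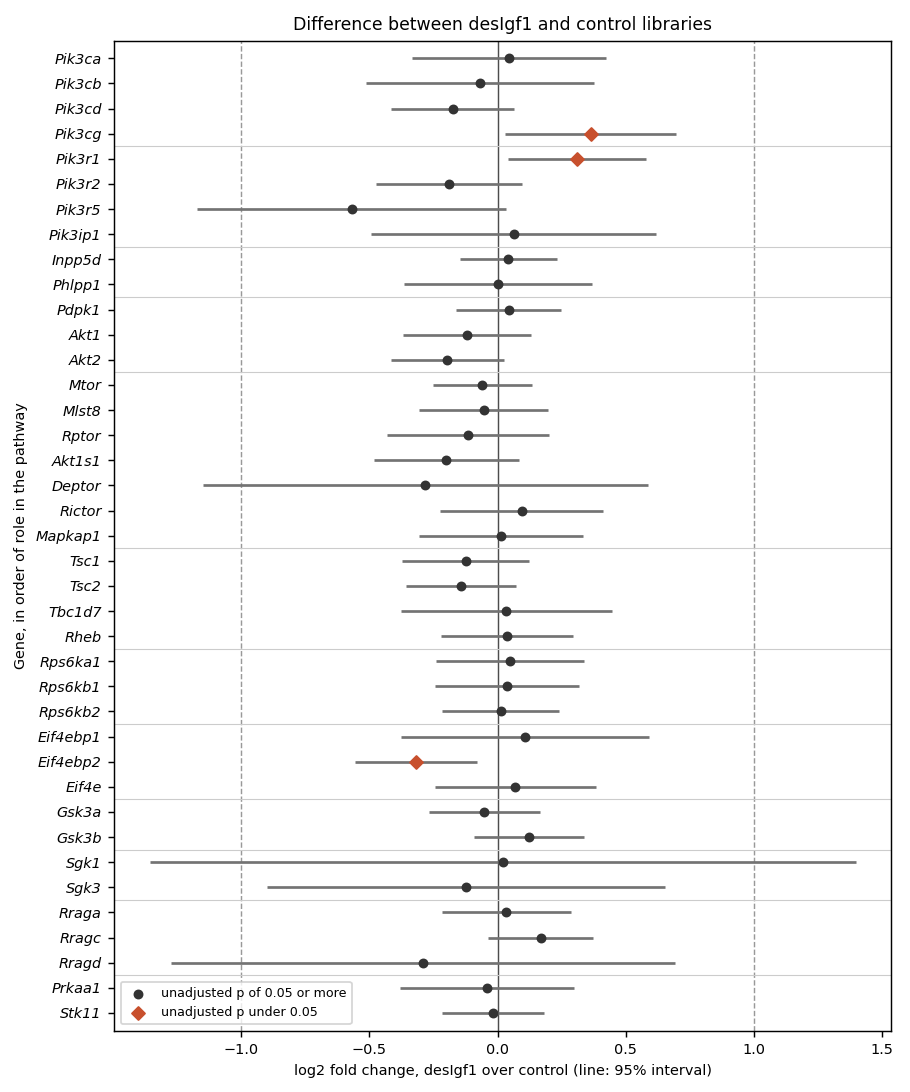
Log2 fold change of each of the 39 genes, desIgf1 over control, with its 95% interval as a line and dashed lines at 1 either way; genes are grouped by role. Diamonds mark the 3 genes with an unadjusted p under 0.05 (Pik3cg, Pik3r1 and Eif4ebp2), and none of the 39 passed the adjusted test.

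Some genes had every library of one group beyond every library of the other without passing the test. There were 8 such genes among the 39 (20.5%), against 13.5% of all tested genes. Pik3cg, Pik3r1, Gsk3b and Rragc were higher in all 3 desIgf1 libraries, 10.3% of the 39 against 7.31% of all tested genes. Akt2, Mtor, Tsc2 and Eif4ebp2 were lower in all 3, again 10.3%, against 6.18%. With DESeq2 size factors the count was 9, and with no scaling factors it was 7.

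Upstream sequence was searched because AKT and mTOR complex 1 control transcription factors, AKT by excluding FOXO factors from the nucleus and mTOR complex 1 by retaining TFEB, an E-box binding factor, in the cytoplasm. RefSeq promoters of GRCm38.p6 matched 35 of the 39 genes by symbol, and the 250 bases before each annotated start were read on both strands. The FOXO core TGTTTAC was present for 3 of the 35 genes (8.57%), Pik3cg, Akt1 and Mapkap1, beside 3.54% of 27025 genes with a promoter in the table. The E-box CACGTG, which the hypoxia core ACGTG overlaps, was present for 5 of them (14.3%), Tbc1d7, Rheb, Eif4e, Sgk1 and Rragc, beside 6.86%. That background holds genes whether or not these cells express them, while all 39 genes passed the filter on low counts. The sets are therefore unlike, and the share among tested genes was not counted. A gene with several annotated starts counted if any of its windows matched. The windows of Akt1 and Rragc are printed as an example of each motif, Akt1 as the most abundant AKT gene and Rragc as the gene with the largest share of its variance between groups. Capitals mark the motif, and each sequence runs 5′ to 3′ on the strand of its gene and ends at the base before the start.
Akt1 (chr12:112674885-112675134, minus strand): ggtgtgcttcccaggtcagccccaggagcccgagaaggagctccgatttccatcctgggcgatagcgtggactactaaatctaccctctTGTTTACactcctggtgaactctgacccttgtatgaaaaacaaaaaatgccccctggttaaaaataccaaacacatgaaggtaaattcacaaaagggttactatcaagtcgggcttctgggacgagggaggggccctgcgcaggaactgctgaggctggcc
Rragc (chr4:123917183-123917432, plus strand): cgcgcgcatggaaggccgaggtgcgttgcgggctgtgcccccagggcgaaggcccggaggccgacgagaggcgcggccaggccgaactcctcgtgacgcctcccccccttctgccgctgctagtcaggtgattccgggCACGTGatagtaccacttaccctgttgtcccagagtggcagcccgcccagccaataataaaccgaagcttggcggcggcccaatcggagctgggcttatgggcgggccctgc
Further motifs are given as the number of the 35 genes with a match and their share, beside the share of all. An extended FOXO site TGTTTACC, which contains the core, had 1 (2.86%, beside 0.91%), and a KLF site GGGGCGTGG had 0 (beside 2.74%). The hypoxia core ACGTG had 12 (34.3%, beside 18.5%), a sterol element TCACNNCAC 2 (5.71%, beside 3.63%) and a cAMP element TGACGTCA 0 (beside 1.77%). An ATF4 and CEBP site TGATGCAA had 1 (2.86%, beside 0.918%) and a STAT site TTCNNNGAA 5 (14.3%, beside 8.13%). The palindromic NRF1 motif had 0 (beside 0.877%) and an ETS site CCGGAAGTG 3 (8.57%, beside 1.6%). A match describes letters in the window, and binding was not measured. The 3 genes with the FOXO core had log2 fold changes of 0.36, -0.12 and 0.01 for Pik3cg, Akt1 and Mapkap1. Those with the E-box had 0.03, 0.04, 0.07, 0.02 and 0.17 for Tbc1d7, Rheb, Eif4e, Sgk1 and Rragc.

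Class I PI3K is a catalytic p110 subunit bound to a regulatory subunit. Per kilobase of exon, Pik3cd, which encodes the p110δ subunit that predominates in lymphocytes, had the highest level of all 39 genes, 129 CPM per kilobase over the 6 libraries. Pik3ca (p110α) stood at 19.9, Pik3cg (p110γ, which acts downstream of G protein-coupled receptors) at 10.8 and Pik3cb (p110β) at 2.29 CPM per kilobase. Pik3cd was at 770.4, 743 and 754 CPM in the desIgf1 libraries and 901, 764 and 895 CPM in the control libraries. The second control library lay close to the desIgf1 libraries and within their range, and the other 2 controls were higher (log2 fold change -0.18 ± 0.10 SE, edgeR adjusted p = 0.652).

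Pik3cg was the catalytic subunit gene with the largest difference. It was at 98.3, 111 and 98.8 CPM in the desIgf1 libraries and 75.6, 95.9 and 68.2 CPM in the control libraries. All 3 desIgf1 libraries were above all 3 controls, with the second control nearest to them. The log2 fold change was 0.36 ± 0.14 SE and did not pass (edgeR adjusted p = 0.589, unadjusted p = 0.0368), nor did it with the block (0.38, adjusted p = 0.193). With 1 library left out, and no block, it ran from 0.26 (without the third control) to 0.52 (without the second control). The gene lies on chromosome 12, 32173473 to 32208659 (GRCm38, as for all coordinates here). Pik3ca and Pik3cb had log2 fold changes of 0.04 and -0.07, with intervals of -0.34 to 0.42 and -0.52 to 0.38.

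Among the regulatory subunits, Pik3r1, which encodes p85α and its shorter forms, was at 152, 149 and 150.0 CPM in the desIgf1 libraries and 130.3, 103 and 131 CPM in the control libraries. The desIgf1 libraries lay within 3 CPM of each other and all above the controls, of which the second was lowest. Its log2 fold change was 0.31 ± 0.12 SE (edgeR adjusted p = 0.561, unadjusted p = 0.0296). With 1 library left out, and no block, it ran from 0.20 (without the second control) to 0.37 (without the third control). Pik3r1 lies on chromosome 13, 101680563 to 101768217. Pik3r2, which encodes p85β, was at 53.3, 60.0 and 56.5 CPM in the desIgf1 libraries and 59.5, 59.9 and 74.5 CPM in the control libraries, lower on average with desIgf1 but with groups that overlap (log2 fold change -0.19 ± 0.12 SE, edgeR adjusted p = 0.673).

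Pik3r5, which encodes p101, the partner of p110γ, had the lowest log2 fold change of the 39 genes. It was at 29.8, 32.5 and 18.8 CPM in the desIgf1 libraries and 52.5, 36.7 and 31.1 CPM in the control libraries. Each desIgf1 library was below the control of its number, but the second one was above the third control, so the groups overlapped. The log2 fold change was -0.57 ± 0.26 SE (edgeR adjusted p = 0.610) and -0.57 with the block (adjusted p = 0.194). Without the first control it was -0.33, and over the 6 fits without 1 library and without the block it ran from -0.73 to that value. Pik3cg and Pik3r5 were called in 1 of the 15 other settings tried, and no other of the 39 genes in any. That setting had the block and left out both libraries numbered 2. There the log2 fold changes were 0.46 and -0.77 (edgeR adjusted p = 0.0232 and 0.00113), in a fit of 4 libraries with 1 residual degree of freedom that called 2 of the 39 genes (5.13%), against 4.42% of all tested genes. Without the libraries numbered 1 the log2 fold changes with the block were 0.37 and -0.45, and without those numbered 3 they were 0.30 and -0.49, and neither passed, where 0.513% and 7.64% of all tested genes did.

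Pik3ip1, a membrane protein that binds and restrains the catalytic subunit in T cells, had the highest level per kilobase of this set of partners (22.9 CPM per kilobase). It was at 99.2, 118 and 82.6 CPM in the desIgf1 libraries and 97.8, 65.0 and 124 CPM in the control libraries. The controls spanned nearly a doubling and enclosed all 3 desIgf1 libraries (log2 fold change 0.06, interval -0.49 to 0.62).

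A pair of phosphatase genes opposes the early steps. Inpp5d encodes SHIP1, the blood cell enzyme that removes a phosphate from PIP3, and was at 262, 278 and 260.4 CPM in the desIgf1 libraries and 258, 259 and 261 CPM in the control libraries. Except for the second desIgf1 library these values lay within 5 CPM of each other, and the interval of the log2 fold change was -0.15 to 0.23. Phlpp1, which dephosphorylates AKT, was at 10.2 to 12.3 CPM with desIgf1 and 10.4 to 12.3 CPM in controls.

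Of the kinases that read PIP3, Akt1 (promoter printed above) was the most abundant per kilobase, at 84.5 CPM per kilobase, with Akt2 at 18.7 and Pdpk1 (PDK1, which phosphorylates AKT in its activation loop) at 16.6. Akt1 was at 317, 305 and 374 CPM in the desIgf1 libraries and 359, 348 and 374 CPM in the control libraries, and the third desIgf1 library was level with the controls (log2 fold change -0.12 ± 0.11 SE, edgeR adjusted p = 0.754). Akt2, on chromosome 7, 27591552 to 27640826, was at 127, 123 and 122 CPM in the desIgf1 libraries and 155, 138 and 134 CPM in the control libraries. The desIgf1 libraries were all below the controls, by a small margin against the third one, and the log2 fold change of -0.20 ± 0.09 SE did not pass (edgeR adjusted p = 0.625). With 1 library left out, and no block, it ran from -0.24 (without the third control) to -0.13 (without the first control). Part of the Akt2 sequence is shared with its pseudogene Akt2-ps, which holds 16% of the runs of 50 bases in the longest Akt2 coding transcript, and reads placed equally well on both are not in the counts. Pdpk1 was at 171 to 194 CPM with desIgf1 and 176 to 182 CPM in controls (log2 fold change 0.04, interval -0.16 to 0.25).

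**Figure D2:**
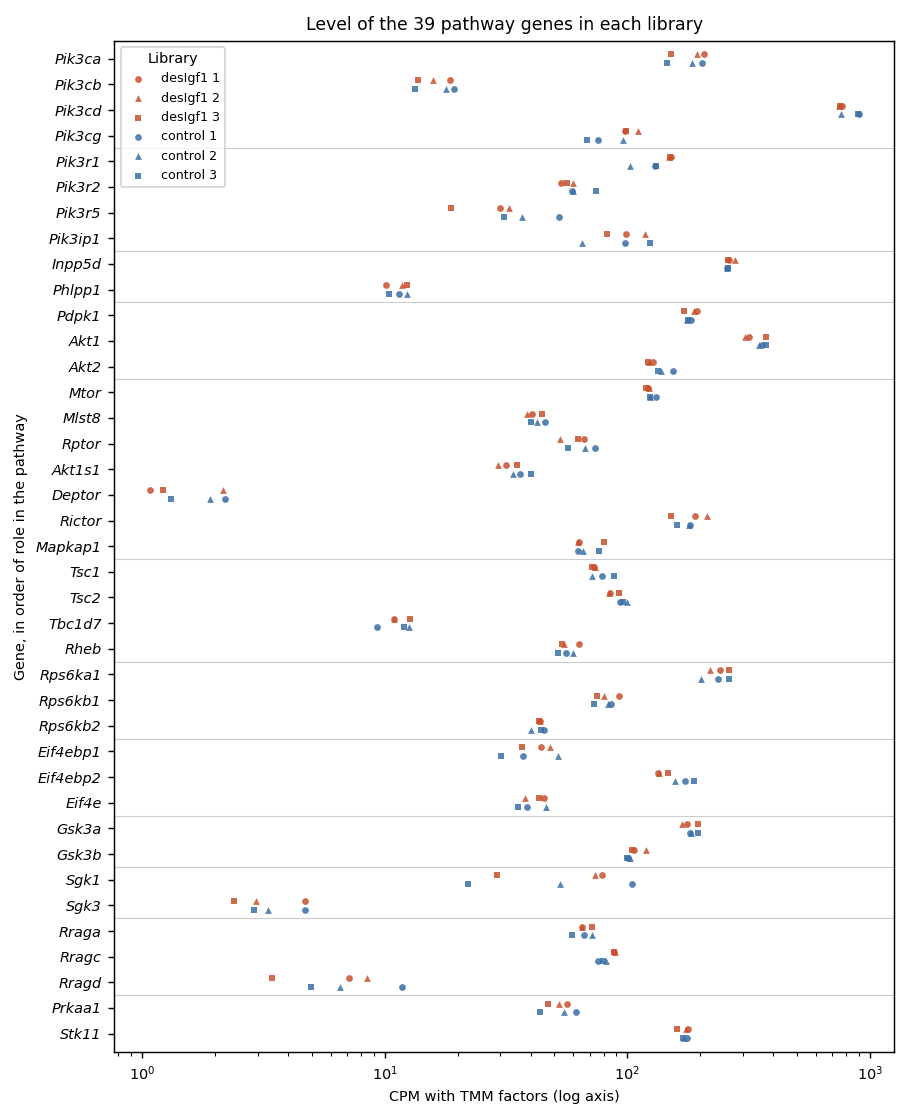
CPM with TMM factors of each gene in each of the 6 libraries on a log axis, desIgf1 above control within a row; circles, triangles and squares are replicate numbers 1, 2 and 3, and lines part the roles. Groups overlap for all but 8 of the genes, and Sgk1 spreads widest by replicate number, between 22.1 and 104 CPM in controls.

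The mTOR complexes share the kinase Mtor and the subunit Mlst8. Mtor was at 121, 123 and 119.5 CPM in the desIgf1 libraries and 131, 124 and 124 CPM in the control libraries. The groups did not overlap, but the nearest libraries were about 1 CPM apart and the log2 fold change was only -0.06 ± 0.08 SE (edgeR adjusted p = 0.851). Mlst8 was at 38.5 to 44.3 CPM with desIgf1 and 40.1 to 45.6 CPM in controls. In complex 1, Rptor (raptor, the scaffold that brings in substrates) was at 53.0 to 66.4 CPM with desIgf1 and 57.2 to 73.6 CPM in controls. Akt1s1 encodes PRAS40, an inhibitor that AKT removes, and was at 31.6, 29.3 and 35.1 CPM in the desIgf1 libraries and 36.0, 34.0 and 40.3 CPM in the control libraries. Each desIgf1 library was lower than the control of its number, while the groups overlapped (log2 fold change -0.20 ± 0.12 SE, edgeR adjusted p = 0.661). Deptor, an inhibitor of both complexes, had the lowest mean of the 39 genes, at 1.08, 2.16 and 1.22 CPM in the desIgf1 libraries and 2.19, 1.90 and 1.32 CPM in the control libraries.

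In complex 2, Mapkap1 (SIN1) was the most abundant subunit gene of either complex per kilobase, at 16.9 CPM per kilobase, with 63.1, 62.8 and 80.4 CPM in the desIgf1 libraries and 62.7, 65.7 and 76.2 CPM in the control libraries. Both libraries numbered 3 were highest in their group, and the log2 fold change was 0.01 (interval -0.31 to 0.33). Rictor, the scaffold of complex 2, was at 152 to 214 CPM with desIgf1 and 161 to 181 CPM in controls (log2 fold change 0.09, interval -0.22 to 0.41).

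The TSC complex, a brake on RHEB, is made of TSC1, TSC2 and TBC1D7. Tsc2, which carries the activity that switches RHEB off, was at 84.6, 84.3 and 92.3 CPM in the desIgf1 libraries and 93.0, 99.97 and 95.7 CPM in the control libraries. The third desIgf1 library nearly met the first control, and the log2 fold change was -0.14 ± 0.09 SE (edgeR adjusted p = 0.673). On the opposite strand, Pkd1 overlaps 7.20% of its exonic bases. Tsc1 was at 73.1, 74.0 and 71.8 CPM in the desIgf1 libraries and 78.8, 71.7 and 88.3 CPM in the control libraries, with overlap (log2 fold change -0.12 ± 0.11 SE, edgeR adjusted p = 0.739). Tbc1d7 and Rheb were at 10.9 to 12.7 CPM with desIgf1 and 9.27 to 12.5 CPM in controls and at 54.0 to 63.2 CPM with desIgf1 and 52.0 to 60.0 CPM in controls.

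Of the outputs of mTOR complex 1, the translation repressor gene Eif4ebp2 had the smallest p of the 39 genes. It encodes 4E-BP2, which holds the cap-binding protein eIF4E until mTOR complex 1 phosphorylates it. Eif4ebp2 was at 134, 135 and 147 CPM in the desIgf1 libraries and 174, 157 and 189 CPM in the control libraries. The groups were clear of each other by about 9 CPM, with means of 139 ± 7.36 CPM with desIgf1 and 173 ± 16.1 CPM in controls (SD, n = 3 each). The log2 fold change was -0.32 ± 0.10 SE with an interval of -0.56 to -0.08, and it did not pass without the block (edgeR adjusted p = 0.505, unadjusted p = 0.0157), with it (adjusted p = 0.204) or in DESeq2 (adjusted p = 0.267). With 1 library left out, and no block, it ran from -0.39 (without the third desIgf1 library) to -0.25 (without the third control). The gene lies on chromosome 10, 61428491 to 61452661.

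Its paralogue Eif4ebp1 (4E-BP1) was at 36.8 to 47.9 CPM with desIgf1 and 30.2 to 51.9 CPM in controls, with a log2 fold change of 0.11 (interval -0.38 to 0.59). Eif4e itself was at 37.9 to 45.5 CPM with desIgf1 and 35.6 to 46.3 CPM in controls, and 7.16% of its runs of 50 bases occur in other annotated transcripts. The S6 kinase genes Rps6kb1 and Rps6kb2 were at 75.2 to 92.8 CPM with desIgf1 and 72.7 to 86.0 CPM in controls and at 43.3 to 43.8 CPM with desIgf1 and 40.2 to 45.4 CPM in controls, with log2 fold changes of 0.04 and 0.01. Rps6ka1, which encodes the kinase RSK1 of the ERK branch, was the most abundant of these kinases per kilobase (55.6 CPM per kilobase). It was at 240.3, 220.1 and 262 CPM in the desIgf1 libraries and 236, 201 and 262 CPM in the control libraries, higher with desIgf1 in numbers 1 and 2 and level in number 3 (log2 fold change 0.05, interval -0.24 to 0.34).

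GSK3 kinases are held inactive by AKT. Gsk3a was at 176, 169 and 195 CPM in the desIgf1 libraries and 181, 184 and 196 CPM in the control libraries (log2 fold change -0.05, interval -0.27 to 0.17), with groups that overlap, and 28.3% of its exonic bases lie opposite another gene. Gsk3b was at 107, 119.5 and 105 CPM in the desIgf1 libraries and 101, 103 and 99.9 CPM in the control libraries, without overlap but with the third desIgf1 library within 2 CPM of the second control (log2 fold change 0.12 ± 0.09 SE, edgeR adjusted p = 0.706). With 1 library left out, and no block, it ran from 0.06 (without the second desIgf1 library) to 0.15 (without the first desIgf1 library).

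Sgk1, a kinase of the same family as AKT that is known to promote Th17 cells in salt-rich conditions, varied more between replicate numbers than between groups. It was at 78.9, 73.6 and 29.0 CPM in the desIgf1 libraries and 104, 52.6 and 22.1 CPM in the control libraries. Both libraries numbered 3 were far below the others, and desIgf1 was lower than control in number 1 and higher in numbers 2 and 3. The log2 fold change was 0.02 ± 0.58 SE with an interval of -1.36 to 1.40, which holds a 2-fold change in either direction. With the block the log2 fold change was 0.16 with an interval of -0.31 to 0.62, within 2-fold either way (edgeR adjusted p = 0.731). Sgk3 was at 2.40 to 4.68 CPM with desIgf1 and 2.89 to 4.69 CPM in controls.

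Amino acid and energy sensing enter through other members. Rragc, a RAG GTPase that pairs with RAGA or RAGB to bring mTOR complex 1 to the lysosome, was at 87.9, 89.3 and 88.6 CPM in the desIgf1 libraries and 75.8, 81.5 and 79.1 CPM in the control libraries. The desIgf1 libraries spanned less than 2 CPM and all lay above the controls. The log2 fold change was 0.17 ± 0.09 SE with an interval of -0.04 to 0.37 (edgeR adjusted p = 0.634), and the gene lies on chromosome 4, 123917446 to 123936997, with 7.90% of its exonic bases opposite 4930535I16Rik. It is the E-box gene printed above. Rraga was the most abundant of the 3 RAG genes per kilobase (41.1 CPM per kilobase) and was at 65.3, 65.1 and 71.3 CPM in the desIgf1 libraries and 66.1, 71.8 and 59.2 CPM in the control libraries. Rragd, the alternative to Rragc, was much lower at 1.37 CPM per kilobase. Stk11 encodes LKB1, the kinase that activates AMPK, and was at 178, 175 and 160.3 CPM in the desIgf1 libraries and 177, 172 and 170.4 CPM in the control libraries. Prkaa1, the AMPKα1 catalytic subunit, was at 47.4 to 56.3 CPM with desIgf1 and 43.9 to 61.6 CPM in controls. The log2 fold changes of Rraga, Stk11 and Prkaa1 were 0.03, -0.02 and -0.04, with intervals of -0.22 to 0.29, -0.22 to 0.18 and -0.38 to 0.30.

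Ratios of related genes within a library do not depend on the scaling between libraries. Of 11 pairs compared per kilobase, 2 had groups that did not overlap (18.2%), and each includes a gene, Pik3cg or Pik3r1, whose own groups did not overlap. Of all tested genes, taken singly, 13.5% had groups that did not overlap. The log2 ratio of Pik3cd to Pik3cg was 3.4, 3.17 and 3.36 in the desIgf1 libraries and 4.01, 3.42 and 4.14 in the control libraries, or 3.31 ± 0.12 with desIgf1 and 3.86 ± 0.38 in controls (SD, n = 3 each). The log2 ratio of Pik3r1 to Pik3r2 was 0.24, 0.04 and 0.14 in the desIgf1 libraries and -0.14, -0.49 and -0.46 in the control libraries, or 0.14 ± 0.10 with desIgf1 and -0.36 ± 0.20 in controls. Every desIgf1 library had more Pik3r1 than Pik3r2 per kilobase and every control less. Which gene is ahead depends on the exon lengths used (10079 and 4176 bases), while the difference between groups does not. The groups overlapped for the other 9 ratios, among them Akt1 to Akt2 (2.21 ± 0.18 with desIgf1 and 2.14 ± 0.14 in controls), Rptor to Rictor (-1.27 ± 0.38 with desIgf1 and -1.07 ± 0.10 in controls) and Eif4ebp1 to Eif4ebp2 (-0.30 ± 0.27 with desIgf1 and -0.76 ± 0.53 in controls). The ratios were not tested.

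**Figure D3:**
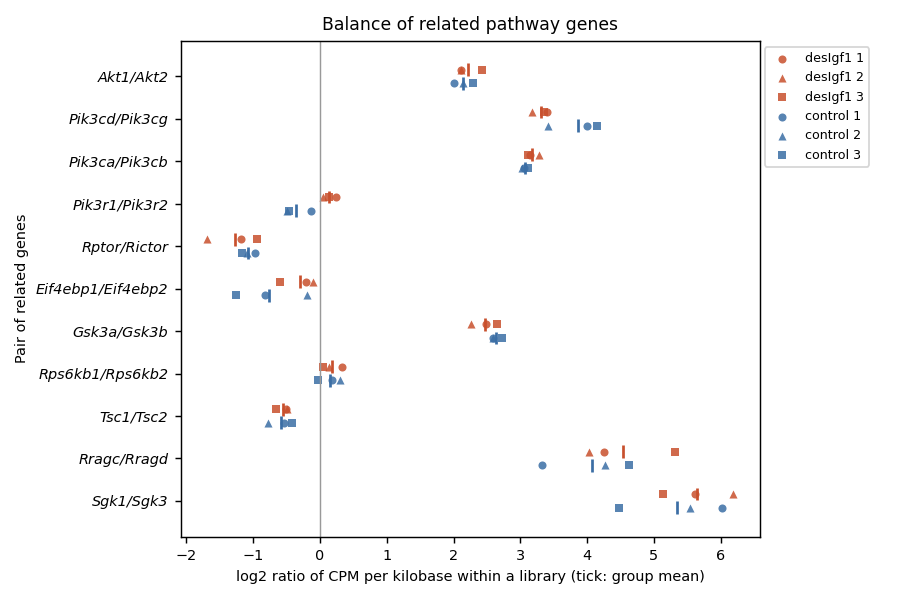
Log2 ratio of CPM per kilobase of 11 pairs of related genes within each library, desIgf1 above control in each row, with ticks at the group means; shapes are replicate numbers. The groups are apart for Pik3cd to Pik3cg, lower with desIgf1, and for Pik3r1 to Pik3r2, higher with desIgf1, and overlap for the other 9.

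The spread of some of these genes followed the replicate number that both groups carry in their titles. The number took over 50% of the variance of log2 CPM for 19 of the 39 genes (48.7%), against 44.9% of all tested genes. The group did so for 7 of them (17.9%), against 16.6%. The number exceeded the group for 27 of the 39 (69.2%), against 67.4% of all tested genes. The number has 2 degrees of freedom and the group 1, so these shares are not on an equal footing, and those of the 39 genes are close to those of all tested genes. Pik3ca is an example, at 208, 193 and 151 CPM in the desIgf1 libraries and 203, 186 and 146 CPM in the control libraries, where the number took 98.7% of the variance and the group 1.26%. The number also took 92.9% for Sgk1, 95.9% for Mapkap1 and 91.6% for Rps6ka1. The mean log2 difference of libraries numbered 3 minus those numbered 1 and 2 was -1.57 for Sgk1, -0.99 for Rragd and -0.61 for Pik3r5. The group took its largest shares for Rragc (88.1%), Eif4ebp2 (75.7%), Akt2 (66.8%), Tsc2 (65.4%) and Pik3r1 (65.3%). The labels do not say what the number stands for.

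**Figure D4:**
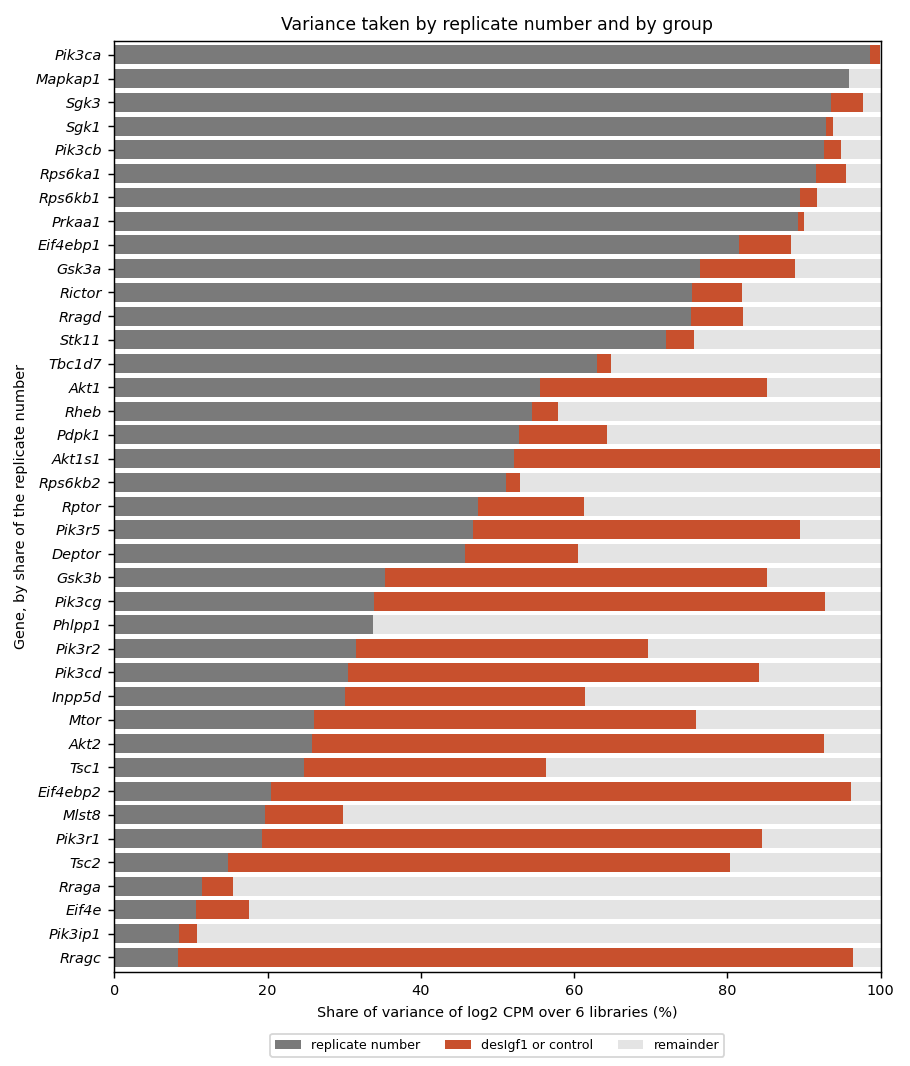
Share of the variance of log2 CPM over the 6 libraries that lies between replicate numbers (grey), between desIgf1 and control (red) and in the remainder (pale), for each of the 39 genes ordered by the share of the number. Pik3ca is at the top with 98.7% between numbers, and Rragc at the bottom with 88.1% between groups.

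A further 71 genes of the pathway, among them subunits of the GATOR, LAMTOR, AMPK and folliculin complexes, were listed by role. Of these 67 passed the filter, and Pik3r6, Ddit4l, Prkaa2 and Sgk2 did not. In edgeR 0 of the 67 passed in either direction, with the block or without it, and their median log2 fold change was -0.02. At an unadjusted p under 0.05 there were 4 (5.97%, against 8.16% of all tested genes), 3 higher and 1 lower. Both are smaller shares of the 67 than over all tested genes (4.75% higher and 3.42% lower). With the block there were 12 (17.9%, against 14.3%). Of the 67, 9 were higher, a larger share than the 9.02% of all tested genes, and 3 were lower, a smaller share than the 5.29%. DESeq2 called 2 of the 67 (2.99%, against 1.48% of the 14097 genes with a DESeq2 adjusted p), and both were higher with desIgf1. Blocked fits were also made without both libraries of 1 number. Leaving out number 2, 3 passed (4.48%, against 4.42% of all tested genes), namely Castor1, Lpin1 and Ddit4. Leaving out number 3, 6 passed (8.96%, against 7.64%), the same 3 with Eef2k, Trib3 and Pik3ap1. Leaving out number 1, 0 passed, against 0.513%.

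The genes that DESeq2 called were Castor1 and Eef2k. Castor1, known from human cells as an arginine sensor that restrains mTOR complex 1, was at 52.2, 80.0 and 52.1 CPM in the desIgf1 libraries and 32.4, 30.9 and 35.9 CPM in the control libraries. All desIgf1 libraries were above all controls (log2 fold change 0.89 ± 0.18 SE, adjusted p = 0.316 in edgeR, 0.142 with the block and 0.00376 in DESeq2). Eef2k, the kinase that slows translation elongation and is inhibited by S6 kinase, was at 10.6, 16.1 and 12.1 CPM in the desIgf1 libraries and 5.90, 6.24 and 8.93 CPM in the control libraries, without overlap (log2 fold change 0.88 ± 0.24 SE, adjusted p = 0.430 in edgeR, 0.171 with the block and 0.0353 in DESeq2). Castor1 lies on chromosome 11, 4218225 to 4222409 and Eef2k on chromosome 7, 120842831 to 120907450.

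The next genes by p were Lpin1, Fnip2, Prr5 and Trib3. Lpin1, a phosphatidate phosphatase that mTOR complex 1 keeps out of the nucleus, was at 88.9, 105 and 62.7 CPM in the desIgf1 libraries and 46.3, 59.6 and 42.6 CPM in the control libraries (edgeR adjusted p = 0.417, 0.0633 with the block). Fnip2, a partner of folliculin, was at 4.03, 2.97 and 3.53 CPM in the desIgf1 libraries and 5.68, 7.11 and 4.04 CPM in the control libraries, with the groups almost touching (edgeR adjusted p = 0.603). Prr5, a subunit of mTOR complex 2, was at 2.58, 2.87 and 4.34 CPM in the desIgf1 libraries and 1.67, 1.83 and 2.63 CPM in the control libraries, with overlap (edgeR adjusted p = 0.625). Trib3, a pseudokinase reported to bind AKT, was at 9.01, 12.6 and 5.06 CPM in the desIgf1 libraries and 4.91, 6.69 and 4.41 CPM in the control libraries, also with overlap (edgeR adjusted p = 0.625).

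**Figure D5:**
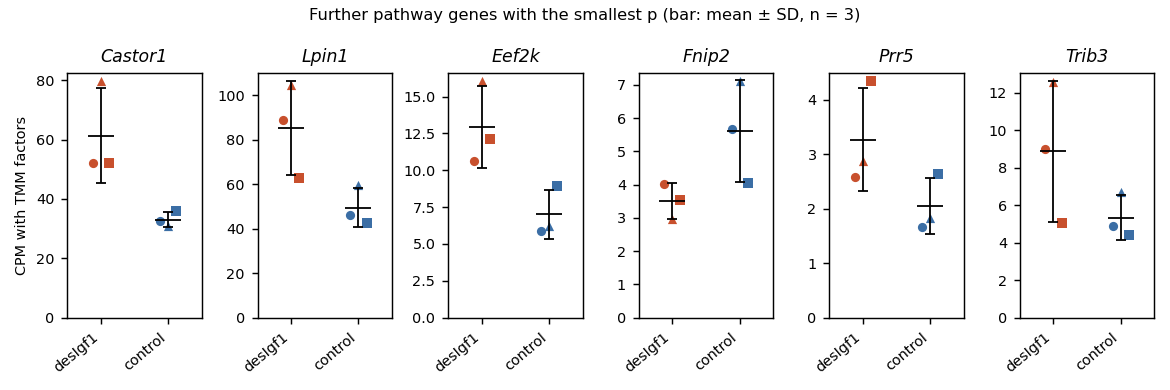
CPM with TMM factors of the 6 further pathway genes with the smallest p, desIgf1 left of control in each panel; points are libraries, shaped by replicate number, and bars are mean ± SD (n = 3). Castor1, Lpin1 and Eef2k are higher in all 3 desIgf1 libraries, Fnip2 is lower in all 3, and Prr5 and Trib3 overlap.

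Gene counts summed to 34567899 to 47929948 per library, and the smallest count of any of the 39 genes in a library was 43. The sorted cells carried T cell markers (7 genes, 5258 to 5803 CPM summed with desIgf1 and 5240 to 5397 CPM in controls) and Th17 markers (7 genes, 2129 to 2525 CPM with desIgf1 and 1536 to 1785 CPM in controls, without overlap). Markers of B cells summed to 0.997 to 2.11 CPM with desIgf1 and 1.27 to 3.95 CPM in controls, and those of macrophages and monocytes to 9.63 to 14.5 CPM with desIgf1 and 4.18 to 12.2 CPM in controls, with C1qb at 0. Dendritic cell markers summed to 3.5 to 10.4 CPM with desIgf1 and 1.97 to 4.9 CPM in controls, with Xcr1 and Siglech at 0 throughout. The highest of these sums, in the third desIgf1 library, was mostly Batf3 (7.07 CPM), with Zbtb46 at 1.59, Flt3 at 0.868 and Itgax at 0.848 CPM. NK cell markers summed to 3.09 to 7.3 CPM with desIgf1 and 2.72 to 5.64 CPM in controls, with Ncr1 and Klra8 at 0, and those of CD8 T cells to 4.98 to 11 CPM with desIgf1 and 3.22 to 7.85 CPM in controls. Of the 2 CD8 T cell markers, Cd8a was at 0 to 0.103 CPM over all libraries, and nearly the whole sum was Cd8b1. The groups overlapped for each of these other cell types. Genes of blood cells in general such as Pik3cg, Pik3r5 and Inpp5d are also expressed by these cells, and the part of such cells in their values was not tested.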

How the data were processed

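The authors deposited whole-number read counts per gene, not normalized, for 6 libraries made with a stranded mRNA kit per the labels' protocols. The submitters' processing notes name GRCm38 (mm10), HTSeq 0.7.2, STAR 2.5.3, R 3.4.3, DESeq2 1.18.1, Trim Galore 0.4.5 and SAMtools 0.1.18, with no settings. The sources used here give neither annotation nor strand setting (the deposited files' names hold the word reverse, unexplained), so genes with exons opposite another gene are uncertain. These are Gsk3a (28.3% of exonic bases), Rps6kb2 (23.7%), Mlst8 (22.5%), Rragc (7.90%) and Tsc2 (7.20%), with lower shares elsewhere. The 5 summary lines of each file were left out. Of reads with 1 placement, 13.5 to 15.7% fell outside genes and 0.712 to 0.761% fell in several. Entries aligned to several places, 46.4 to 48.7%, are not in gene counts.

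Symbols, coordinates and exon lengths came from GENCODE M21, which matched 37693 gene identifiers. The main test was edgeR's robust quasi-likelihood test (4.0.16, R 4.3.3) on group alone, with TMM factors and filterByExpr at 10 counts, and Benjamini-Hochberg adjustment over all 13846 tested genes. The standard error is the log2 fold change over the square root of F. Variance shares and differences within numbers used log2 CPM with a prior count of 2. The procedure was run on simulated data with changes of 2-fold or more and no effect of the replicate number. Smaller changes and such an effect were not covered. Same-numbered libraries' deviations from group means correlated at 0.59, 0.32 and 0.55. In the fits with the block, numbers 1 to 3 were therefore taken as pairs, from the data and not a label. The main test ignores this pairing. Standard errors, intervals and p-values are from the main test unless the block or another method is named. DESeq2 1.42.0 and limma 3.58.1 were alternatives. The members and lists were chosen with earlier results of these data known, and 1 gene is not reported here. Values in every library are given for members called in a fit, without overlap between groups, among the 12 smallest p, or most abundant of their role, and for the 6 further genes of smallest p. Some others are shown for contrast, chosen after their values were seen.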

Additional observations from a re-analysis of the deposited data

How the results depend on the processing

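Of 330 log2 fold changes (22 named pathway genes under 15 other settings), 309 kept their direction and side of the threshold, 2 passed it (Pik3cg and Pik3r5, above) and 19 changed sign, none of them past the threshold. All 19 sign changes came with libraries left out, with values of -0.374 to 0.694 (-0.02 to 0.438 with the block) for Sgk1, -0.152 to 0.295 (-0.283 to 0.44 with the block) for Pik3ip1, -0.141 to 0.1 (-0.026 to 0.045 with the block) for Mapkap1, -0.047 to 0.143 (0.016 to 0.083 with the block) for Rps6ka1, -0.037 to 0.103 (-0.077 to 0.127 with the block) for Rraga and -0.046 to 0 (-0.04 to 0.017 with the block) for Stk11. The median over the 39 genes ran from -0.0564 to 0.0377 (-0.0292 to -0.0018 with the block) with libraries left out. Over all genes, calls went from 0 to 44 with the replicate block, 208 in DESeq2 and 16 with no filter on low counts, and the blocked fits without the libraries of 1 number called 72 (number 1), 620 (number 2) and 1069 (number 3). Calls among the 39 genes ranged from 0 to 2 when libraries were left out, and calls among the further pathway genes from 0 to 6 (3 and 6 with the block and without numbers 2 and 3), with 2 in DESeq2. The blocked fit called 0 genes of both lists. The cause of these differences was not tested. With all 6 libraries, residual degrees of freedom were 2 with the block and 4 without it, and with libraries left out they were 1 and 3. DESeq2 size factors in edgeR, limma voom and a minimum of 1 CPM in 3 libraries called 0 genes, as the fit without the block did, with 1130 genes at an unadjusted p under 0.05 in that fit. Deptor, the least abundant of the 39 genes, is the one whose interval passed 2-fold both with and without the block.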
